A study of Mus musculus with 468 samples.

Results

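The level of 10 endothelial and angiogenic genes was followed in the adipose tissue of Diversity Outbred mice, and all 10 were found among the 23180 genes of the count table. They were chosen by name and not by any value: Pecam1, Cdh5, Kdr, Flt1, Tek, Ptprb and Emcn, which are expressed by endothelial cells, and Vegfa, Angpt1 and Angpt2, whose products are secreted and act on those cells. Each mouse gave 1 library of polyadenylated RNA. The mice, an outbred stock bred from inbred founder strains, all ate a diet rich in fat and sugar, labelled as 45 percent fat, and the study names the gonadal fat pad as the tissue. The labels give no sex, age, body weight or batch, so there was 1 group and no treated or control mice. The libraries were divided only by whether they held counts of Ddx3y, a gene of the Y chromosome: 48.5% had none and 51.5% had at least 1461, and relations were computed within each of these sets. Among those without, 2 also held under 100 CPM (counts scaled to the size of their library) of Xist. The study's numbers of females and males for adipose tissue equal those of libraries without and with Ddx3y counts. The sets thus match its sexes in number, so differences between them may be differences between sexes. No label ties a single library to a sex, and the sets are not called sexes here.

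Blood vessels of fat are lined by endothelial cells. Vegfa, which adipocytes make among other cells, binds the receptor Kdr, which carries its growth signal, and Flt1, which binds it more tightly and signals less. Tek (Tie2) is the receptor of the angiopoietins: Angpt1 activates it and steadies vessels, Angpt2 acts mostly against Angpt1 where vessels are being remodelled, and the phosphatase Ptprb (VE-PTP) removes phosphate from Tek and lies at junctions beside the cadherin of Cdh5. Pecam1 is an adhesion protein of those junctions and Emcn a sialomucin of capillaries and veins. Adgre1 encodes F4/80, a surface protein by which mouse macrophages are recognised.

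The windows around the starts of Flt1, Kdr and Vegfa are shown because the ligand and its receptors fell together as Adgre1 rose (with TMM scaling). RefSeq (GRCm38.p6) gave a window of 250 bases before and 50 after the start for 5 of the 10 genes: Emcn, Tek, Kdr, Flt1 and Vegfa. Capitals mark GGAAG or its reverse complement CTTCC, the core that ETS factors bind, and each sequence is on its gene's own strand.
Flt1, chr5:147725962-147726261, minus strand: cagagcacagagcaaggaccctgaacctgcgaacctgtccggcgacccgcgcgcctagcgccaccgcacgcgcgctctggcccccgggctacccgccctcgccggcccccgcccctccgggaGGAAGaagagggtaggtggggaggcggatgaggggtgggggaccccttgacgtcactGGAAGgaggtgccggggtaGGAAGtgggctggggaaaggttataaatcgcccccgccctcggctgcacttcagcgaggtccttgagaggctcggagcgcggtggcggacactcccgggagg
Kdr, chr5:75978406-75978705, minus strand: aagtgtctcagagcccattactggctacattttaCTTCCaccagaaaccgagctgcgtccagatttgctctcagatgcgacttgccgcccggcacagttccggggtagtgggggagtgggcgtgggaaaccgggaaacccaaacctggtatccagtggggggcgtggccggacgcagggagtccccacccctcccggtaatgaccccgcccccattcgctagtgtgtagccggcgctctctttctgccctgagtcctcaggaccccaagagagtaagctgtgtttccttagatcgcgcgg
Vegfa, chr17:46032328-46032627, minus strand: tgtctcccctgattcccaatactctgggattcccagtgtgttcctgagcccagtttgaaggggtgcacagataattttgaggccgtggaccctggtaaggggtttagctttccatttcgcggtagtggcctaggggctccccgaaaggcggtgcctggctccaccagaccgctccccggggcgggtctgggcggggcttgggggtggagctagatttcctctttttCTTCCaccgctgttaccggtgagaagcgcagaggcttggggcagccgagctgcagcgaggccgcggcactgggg
The Flt1 window held 3 matches, Kdr 1, this Vegfa window 1, Emcn 2 and Tek 0. Of 32544 windows of this kind in the mouse, 71.3% held at least 1. The letters ACGTG, the core of sites for hypoxia-inducible factors, on either strand, were in none of these windows and in 19.7% of all. They occurred 1 time in the window of a second Vegfa start at chr17:46025114-46025413. A match in this window is a description of the sequence and not a site of binding.

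All 10 genes were measured well above the floor of the assay. Total counts per library were 35.3 M to 137.8 M (median 82 M), and each of the 10 had at least 10 counts in every library. All 22 further genes of endothelial cells in a list of general markers passed the filter, with a summed level of 743.3 to 1410 CPM in libraries without Ddx3y counts and 478.4 to 1549 CPM in libraries with them. The 14 adipocyte markers summed to at least 9509 CPM in every library. Transcripts of a neighbouring tissue (skeletal muscle, pancreas, liver or epididymis) stood more than 5 median absolute deviations above the median in 67 libraries, 47 of them by the epididymis list. The library of mouse DO283, which is 1 of these 67, had the lowest level of Pecam1, Cdh5, Flt1, Tek, Ptprb and Angpt1 and also the lowest total count, and the slopes and r with Adgre1 were also computed without those 67. In bulk tissue, fewer cells of a type and less RNA per cell cannot be told apart.

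On a scale per length of exon, Cdh5 was the most abundant of the 10. Cdh5 (ENSMUSG00000031871, chr8:104101625-104144511, plus strand, GRCm38) ranged from 23.7 to 113.2 CPM per kilobase with a median of 65.3. Vegfa (ENSMUSG00000023951, chr17:46016993-46032369, minus strand) followed with a median of 44.7 and the widest range of the more abundant genes, 13 to 178.8 CPM per kilobase. Pecam1 (ENSMUSG00000020717, chr11:106654217-106750628, minus strand) had a median of 33.2, Kdr (ENSMUSG00000062960, chr5:75932827-75978458, minus strand) 23.4 and Ptprb (ENSMUSG00000020154, chr10:116275523-116389535, plus strand) 22.5 CPM per kilobase. Kdr exceeded Ptprb in 50.6% of libraries, so their order cannot be given beyond the spread. Tek (ENSMUSG00000006386, chr4:94739289-94874976, plus strand) had a median of 14.5 and Flt1 (ENSMUSG00000029648, chr5:147561604-147726011, minus strand) 11.2. Emcn (ENSMUSG00000054690, chr3:137341067-137432185, plus strand) had a median of 4.78 CPM per kilobase and was below Flt1 in every library. The angiopoietins were lowest: Angpt2 (ENSMUSG00000031465, chr8:18690263-18741562, minus strand) had a median of 2.82 and Angpt1 (ENSMUSG00000022309, chr15:42424723-42676977, minus strand) 2.08, with Angpt2 above Angpt1 in 69.9% of libraries. Cdh5 was above Vegfa in 80.1% of libraries, Vegfa above Pecam1 in 73.7% and Pecam1 above Kdr in 90.2%. Angpt2 lies opposite Mcph1 on the genome, Angpt1 opposite Gm17473, Cdh5 opposite Gm29682, and Ptprb shares its strand with Gm47625 and Gm26495. The use of strand in counting is not given in the sources used here, so reads in those overlaps are uncertain.

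**Figure D1:**
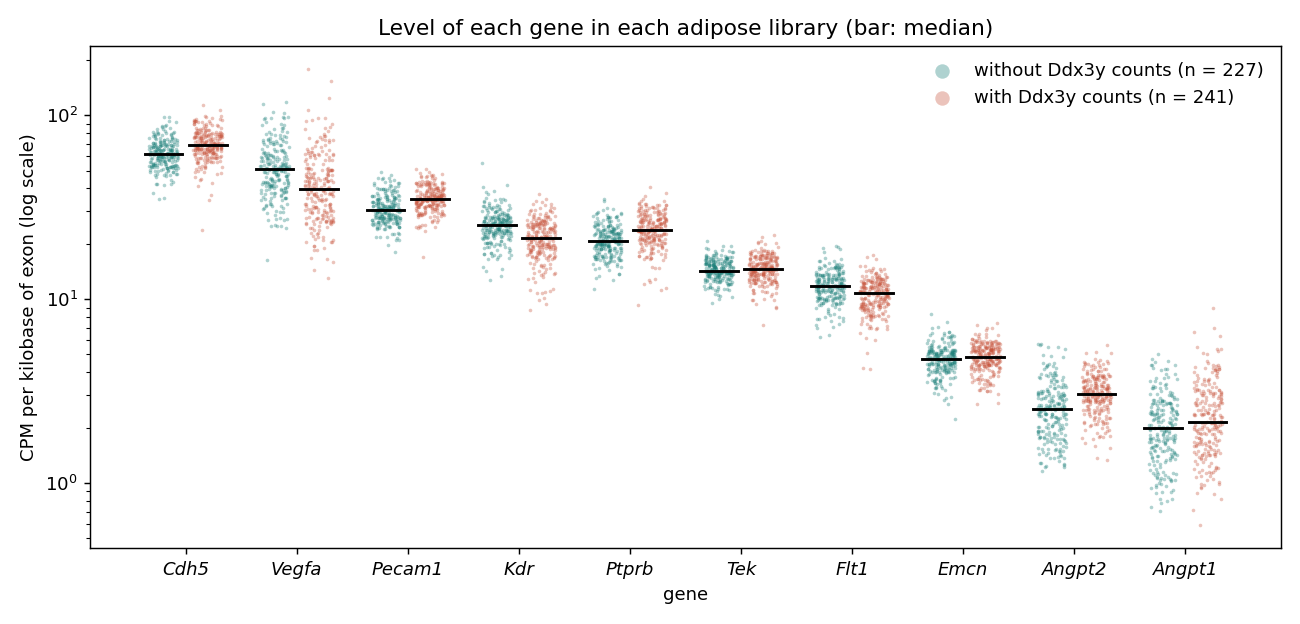
Each point is 1 library, at its CPM per kilobase of exon on a log axis, for the 10 genes in order of their medians and separately for libraries without and with Ddx3y counts; black bars are medians. Cdh5 sits highest (median 65.3 over all libraries) and Angpt1 lowest (2.08), and Vegfa and Angpt1 spread most widely.

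The secreted factors varied more between mice than the endothelial genes did. In CPM, Vegfa ran from 55.7 through a median of 191.5 to 766 (CV 42.4%), Angpt1 from 3.06 through 10.8 to 46.4 (CV 46.8%) and Angpt2 from 4.28 through 10.4 to 21 (CV 31.3%). Tek was the steadiest, from 33.9 through 68.3 to 105.3 CPM (CV 14.9%), and the other endothelial genes had CVs of 18.05% (Emcn) to 23.8% (Kdr). The median CV of the 9508 genes that averaged 10 CPM or more was 19.4%, and Vegfa and Angpt1 lay at percentiles 85.4 and 88.3. The biological coefficient of variation that remained in the edgeR fit once Adgre1 and Ddx3y were accounted for was 14.7% for Tek, 31% for Vegfa and 41.3% for Angpt1.

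Levels in the sets of libraries overlapped broadly for every gene. Vegfa had medians of 219.3 CPM without and 170.7 CPM with Ddx3y counts, Kdr 226.99 and 193.1, and Flt1 158.5 and 144.9. Pecam1 had medians of 189.96 and 218.9 CPM, Cdh5 258.7 and 287.96, Ptprb 275.9 and 317.9, and Angpt2 9.27 and 11.2 CPM. Tek (67.3 and 69.05 CPM) and Emcn (25.5 and 26.4 CPM) were nearly level. These values are given with no test, since the labels do not make the sets groups. Adgre1 itself had a median of 38.1 CPM without Ddx3y counts (10.7 to 656.5) and 62.4 CPM with them (14.8 to 565.7). Of the libraries without Ddx3y counts 5.29% lay above 84.6 CPM of Adgre1, and of those with them 34.9%.

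The first question was how each gene changed with the macrophage gene Adgre1. A slope is the log2 change of a gene per doubling of Adgre1, from 1 quasi-likelihood model (edgeR) over all libraries with its own slope in each set, and p-values were adjusted by the Benjamini-Hochberg method over the 18379 genes tested. Vegfa fell in both sets. Its slope was −0.39 (SE 0.045, adjusted p = 7.33e-16) in libraries without Ddx3y counts and −0.46 (SE 0.033, adjusted p = 7.02e-36) in libraries with them, a loss of 23.6% and 27.3% per doubling of Adgre1. Angpt2 rose in both, by 0.35 (SE 0.045, adjusted p = 3.28e-13) and 0.11 (SE 0.030, adjusted p = 0.000332). Angpt1 fell in both, with slopes of −0.18 (SE 0.062, adjusted p = 0.00561) and −0.28 (SE 0.042, adjusted p = 3.31e-10). Without Ddx3y counts the slope of Angpt1 was −0.046 (adjusted p = 0.523) when scaled by library totals alone.

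Of the 7 endothelial genes, the VEGF receptors fell in both sets (with TMM scaling) and the others did not move as 1 group. Kdr had a slope of −0.12 (SE 0.030, adjusted p = 0.000148) without Ddx3y counts, which was 0.025 when scaled by library totals alone and −0.064 (adjusted p = 0.0585) with the adipocyte score as a covariate, and −0.25 (SE 0.021, adjusted p = 2.46e-27) with them. Flt1 had −0.17 (SE 0.028, adjusted p = 3.68e-09) and −0.17 (SE 0.020, adjusted p = 1.17e-15). In libraries without Ddx3y counts the junction genes rose instead: Pecam1 by 0.15 (SE 0.025, adjusted p = 9.21e-09), Cdh5 by 0.10 (SE 0.028, adjusted p = 0.000569) and Ptprb by 0.12 (SE 0.030, adjusted p = 0.000353). Tek (0.016, adjusted p = 0.536) and Emcn (0.050, adjusted p = 0.0997) did not pass the test there. In libraries with Ddx3y counts Cdh5, Tek, Ptprb and Emcn fell, with slopes of −0.072, −0.084, −0.14 and −0.066 and adjusted p of at most 0.000886 in the same model (with library totals alone Cdh5, at −0.031, and Emcn, at −0.027, did not pass, with adjusted p of 0.156 and 0.258), and Pecam1 did not pass (−0.031, adjusted p = 0.0944), although it did without the 67 libraries that held transcripts of a neighbouring tissue (−0.050, adjusted p = 0.0189).

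In all, 4 of the 10 genes rose and 4 fell in libraries without Ddx3y counts, where 31.5% of all genes tested rose and 31.6% fell. In libraries with Ddx3y counts 1 rose and 8 fell, against 29.3% and 43.2% of all genes. Scaled by library totals alone, 6 rose (Tek, at 0.16, and Emcn, at 0.20, among them) and 1 fell without Ddx3y counts, and 1 rose and 6 fell with them. Under that scaling 11365 of all 18379 genes rose and 2007 fell without Ddx3y counts (median slope 0.14). With them 6949 rose and 5859 fell. With TMM factors the median slope of all genes was 0.0028 and −0.030 in these sets, and that of the 10 genes was 0.033 and −0.11. With so many genes called, the direction and size of each slope carry more than its passing the test. Vegfa lay at percentile 4.93 of all slopes without and 4.47 with Ddx3y counts, and Angpt2 at percentiles 89.3 and 80.2.

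**Figure D2:**
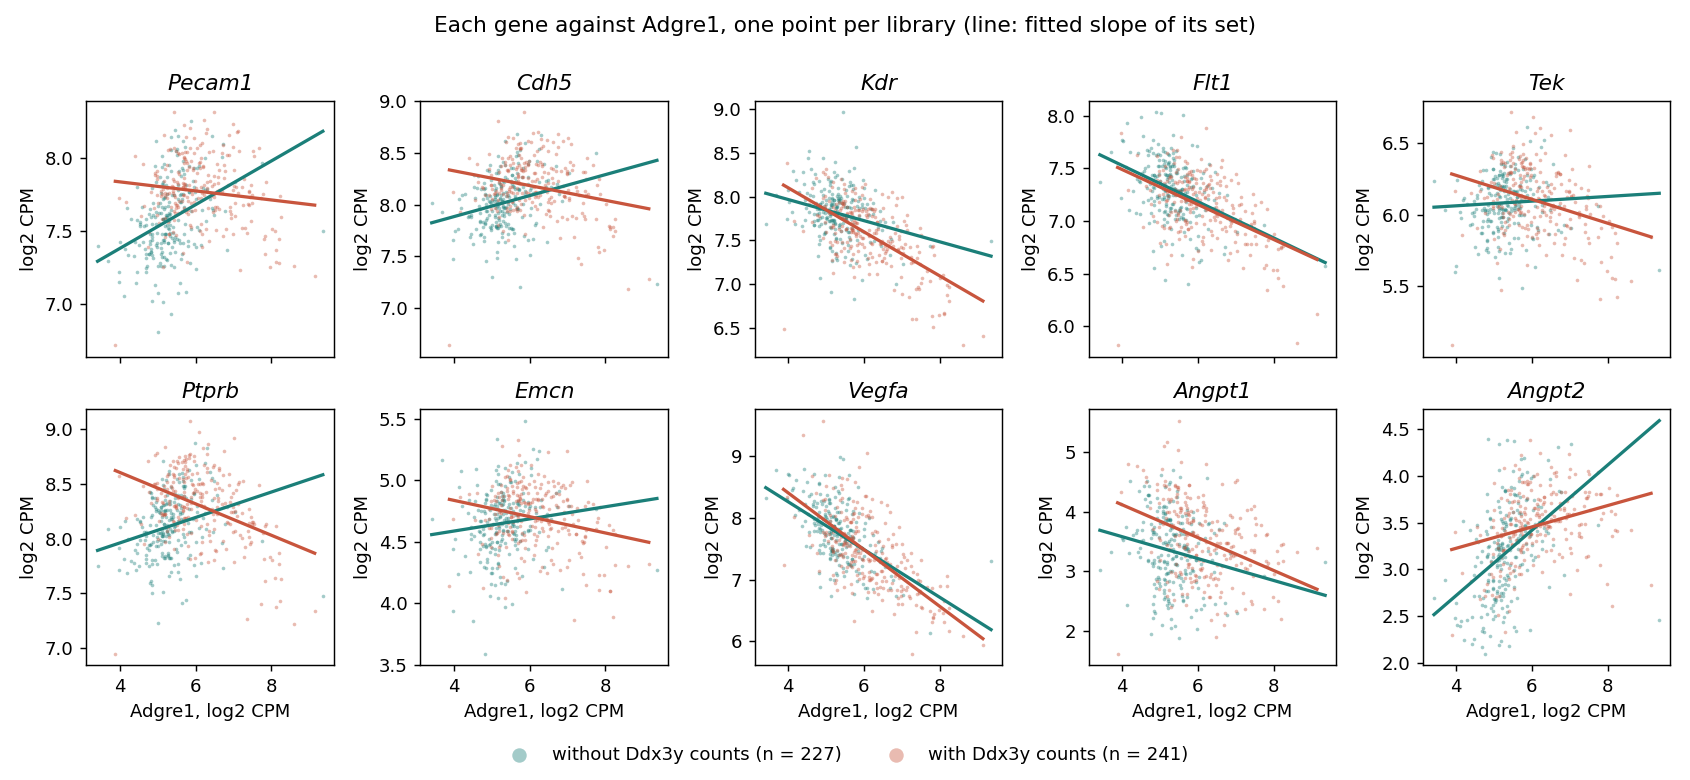
Each panel plots log2 CPM of 1 gene against log2 CPM of Adgre1, 1 point per library, coloured by set, with the fitted slope of each set as a line. Vegfa falls in both sets (slopes −0.39 and −0.46) and Angpt2 rises (0.35 and 0.11); 1 library without Ddx3y counts stands alone at 656.5 CPM of Adgre1, and points with Ddx3y counts drop at the right of most endothelial panels.

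Libraries with Ddx3y counts were also taken in parts of the range of Adgre1, and a bend in the line was not tested. Among the 84 of them above 84.6 CPM of Adgre1, all 7 endothelial genes fell as Adgre1 rose: Pearson's r with Adgre1 was −0.51 for Pecam1, −0.54 for Cdh5, −0.67 for Kdr, −0.70 for Flt1, −0.52 for Tek, −0.65 for Ptprb and −0.46 for Emcn (permutation tests, adjusted p of at most 3.75e-05). Vegfa had r = −0.62 there, while Angpt1 (−0.021, adjusted p = 0.853) and Angpt2 (−0.21, adjusted p = 0.068) did not pass the permutation test. For these 84 libraries no share of all genes was computed, so these falls have no background beside them. Over all libraries with Ddx3y counts 43.2% of all genes tested fell in edgeR. Without Ddx3y counts 12 libraries lay above 84.6 CPM, and no r was computed for them. Slopes were then fitted between 21.5 and 84.6 CPM of Adgre1, which are a different measure from the r above it. This range was chosen after the data were seen, as percentiles 5 to 95 of the libraries without Ddx3y counts. In the 63.5% of libraries with Ddx3y counts that lay in that range Pecam1 and Cdh5 rose with slopes of 0.099 (SE 0.043, adjusted p = 0.044) and 0.11 (SE 0.044, adjusted p = 0.0287), Kdr fell (−0.18, SE 0.052, adjusted p = 0.00145), and Tek, Ptprb, Emcn and Flt1 did not pass the test in edgeR (0.014, 0.023, 0.066 and −0.013, adjusted p 0.251 to 0.85). The secreted genes kept their directions in the range: Vegfa −0.37, Angpt1 −0.50 and Angpt2 0.34, each past the test. In the 89.4% of libraries without Ddx3y counts in the range, 5 endothelial genes rose (Pecam1, Cdh5, Ptprb, Tek and Emcn) and Flt1 fell. Kdr (−0.087, adjusted p = 0.0927 in edgeR) no longer passed. Of all 18379 genes tested in the range, 5102 rose and 5147 fell without Ddx3y counts, and 4113 rose and 4881 fell with them.

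The slopes of 7 genes differed between the sets over all libraries, and in the shared range 1 of these 7 passed the test. With minus without Ddx3y counts, the difference was −0.26 (SE 0.037, adjusted p = 1.34e-10) for Ptprb, −0.23 (SE 0.055, adjusted p = 9.82e-05) for Angpt2, −0.18 (SE 0.030, adjusted p = 3.94e-08) for Pecam1, −0.17 (SE 0.034, adjusted p = 2.83e-06) for Cdh5, −0.13 (SE 0.036, adjusted p = 0.00107) for Kdr, −0.12 (SE 0.033, adjusted p = 0.00155) for Emcn and −0.10 (SE 0.027, adjusted p = 0.00082) for Tek. All 7 were lower with Ddx3y counts, as were 29% of all genes, and none was higher, as were 21.8%. Vegfa (−0.073, 95% interval −0.18 to 0.032), Angpt1 (−0.092, −0.23 to 0.050) and Flt1 (0.0060, −0.059 to 0.071) did not pass. Between 21.5 and 84.6 CPM of Adgre1 the difference for Ptprb remained (−0.19, SE 0.065, adjusted p = 0.0146) and one for Flt1 appeared (0.16, SE 0.065, adjusted p = 0.0395), and the other 8 did not pass (adjusted p 0.171 to 0.846). Some of these were nearly as large as before, with wider errors: Emcn −0.097 (SE 0.063), Kdr −0.097 (SE 0.069) and Tek −0.070 (SE 0.050). With the adipocyte score as a covariate, over all libraries, the differences of Cdh5 (−0.051, adjusted p = 0.245), Kdr (−0.044, adjusted p = 0.377), Tek (−0.0059, adjusted p = 0.887) and Angpt2 (−0.11, adjusted p = 0.131) did not pass in edgeR, and those of Flt1 (0.11, adjusted p = 0.00337) and Angpt1 (−0.28, adjusted p = 0.00638) did. With library totals alone all 10 passed as lower, as did 10255 of all 18379 genes. The median difference of all genes was then −0.12, and Flt1 (−0.10) lay 0.021 above it.

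**Figure D3:**
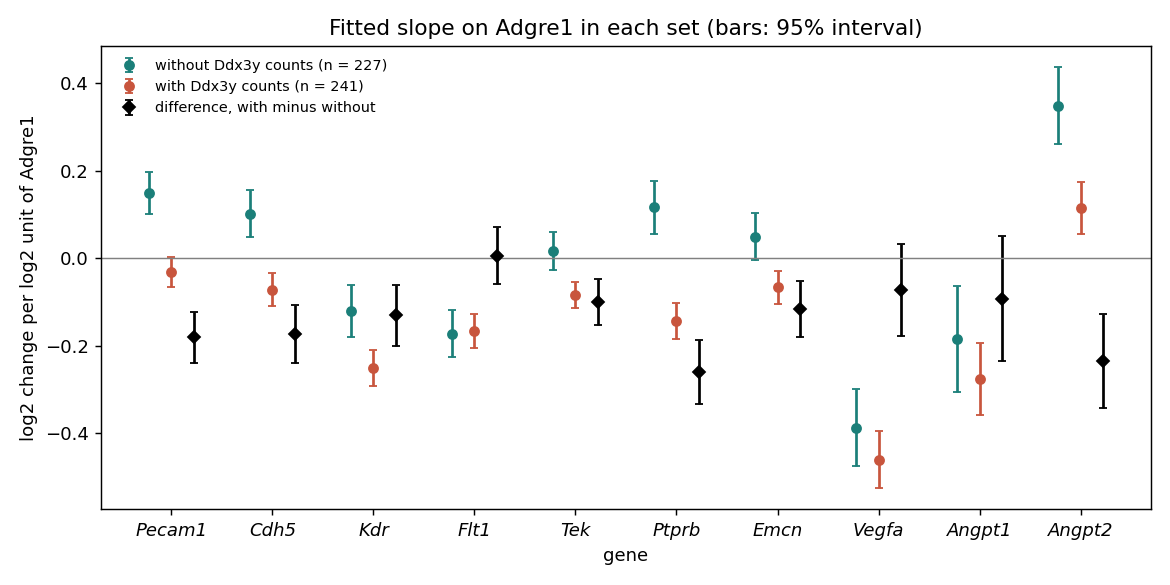
For each gene the fitted slope on Adgre1 (log2 change per log2 unit) is shown for libraries without and with Ddx3y counts and as their difference, with 95% intervals, over all libraries. The interval of the difference lies below 0 for 7 genes, from −0.26 for Ptprb to −0.10 for Tek, and spans 0 for Flt1, Vegfa and Angpt1.

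Adipocyte genes moved with Adgre1 as well. Of the 14 adipocyte markers 13 fell with Adgre1 in libraries with Ddx3y counts and 10 in libraries without them (median slopes −0.32 and −0.19), and their summed level ran from 9509 to 34747 CPM and from 10461 to 36800 CPM. With the adipocyte score in the model, the slopes of Cdh5, Flt1, Tek and Ptprb in libraries with Ddx3y counts turned to 0.089, 0.014, 0.040 and 0.030, of which Cdh5 passed the test (adjusted p = 0.000337), while Kdr (−0.11), Emcn (−0.065), Vegfa (−0.23) and Angpt1 (−0.44) still fell and Angpt2 (0.16) still rose. The part of adipocytes in these relations was not tested beyond this. Of 15 macrophage markers 14 rose with Adgre1 in each set, so that Adgre1 moved with the rest of that list. Scaling matters to the rising genes: with library totals alone in place of TMM factors the median slope of all genes without Ddx3y counts moved by 0.14, 85% of calls were then rises (49.9% with TMM), and Kdr, Flt1 and Angpt1 no longer passed there. Rises were then 54.3% of calls with Ddx3y counts (40.4% with TMM) and 12.5% of calls for the difference of slopes (42.9%). Relative to the median of all genes, Kdr lay at −0.12 under library totals.

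Correlation was computed within each set as well. In libraries without Ddx3y counts r with Adgre1 ran from −0.56 for Vegfa through −0.38 for Flt1 and −0.27 for Kdr to 0.35 for Pecam1 and 0.39 for Angpt2. In libraries with them it ran from −0.64 for Vegfa and −0.61 for Kdr to −0.13 for Pecam1, which did not pass, and 0.29 for Angpt2. Spearman's rho was −0.53 and −0.63 for Vegfa and 0.48 and 0.34 for Angpt2. Of the 20 relations 17 passed (two-sided permutation tests, Benjamini-Hochberg adjustment over the 20). Without the 2 libraries farthest in Adgre1 in each set, r for Vegfa was −0.56 and −0.62, for Angpt2 0.49 and 0.33, and for Cdh5 0.30 and −0.16. Within 5 blocks of consecutive library numbers, standing in for batches that the labels do not name, Vegfa kept r between −0.76 and −0.32 without and −0.74 and −0.55 with Ddx3y counts, while Cdh5 ranged from −0.15 to 0.60 without and −0.48 to 0.068 with them. The relation of Cdh5 thus did not hold in every block.

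The angiopoietin ratio followed Adgre1 in both sets. The log2 ratio of Angpt1 to Angpt2 in CPM ran from −2.03 to 2.60 over all libraries, with medians of 0.18 without and −0.033 with Ddx3y counts. It was above 0 in 59.5% and 48.5% of these libraries. The ratio takes no account of exon length, so 0 does not mark equal abundance. Per kilobase Angpt2 was above Angpt1 in 69.9% of all libraries. Its r with Adgre1 was −0.35 without and −0.41 with Ddx3y counts (rho −0.41 and −0.42, adjusted p 2.5e-05 in both, permutation tests over 20 relations). Above 84.6 CPM of Adgre1 the relation was not seen (r = 0.091, adjusted p = 0.457, permutation test, 84 libraries). The ratio of Flt1 to Kdr rose with Adgre1 in libraries with Ddx3y counts (r = 0.29, adjusted p = 2.5e-05) and did not pass in the others (r = −0.10, adjusted p = 0.136, permutation tests), and the difference between these was not tested. Set against the mean of the other 6 endothelial genes, Pecam1 rose with Adgre1 in both sets (r = 0.45 and 0.50), as did Cdh5 (0.30 and 0.29), while Kdr fell (−0.38 and −0.56) and Flt1 fell (−0.45 and −0.24), all past the threshold. Ptprb rose on this measure without Ddx3y counts (0.28) and fell with them (−0.15), and Tek (0.24) and Emcn (0.19) rose with Ddx3y counts and did not pass without. In libraries with Ddx3y counts the value for Flt1 did not pass between 21.5 and 84.6 CPM of Adgre1 (−0.069, adjusted p = 0.498, permutation test) and was 0.049 once the adipocyte score was regressed out. These 7 measures sum to 0 in each library, so that some must rise where others fall.

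Most pairs of endothelial genes had a positive r in each set. Of their 21 pairs, 18 were positive past the threshold in libraries without Ddx3y counts, with a median r of 0.30. All 21 were so in libraries with them, with a median r of 0.65. With this many libraries an r of 0.14 (Cdh5 with Flt1) already passed, and no share was computed for pairs of other genes. By Spearman's rho, Flt1 did not pass with Cdh5 (0.020), Tek (0.072) or Ptprb (0.13) without Ddx3y counts, though its r did. With library totals alone the median r without Ddx3y counts was higher. Pecam1 and Cdh5 were tied in both (r = 0.70 and 0.77), as were Cdh5 and Ptprb (0.70 and 0.73). Without Ddx3y counts Flt1 had r of 0.49 to Kdr and 0.17 to Tek, against 0.69 and 0.66 with them. Its other r without Ddx3y counts were −0.033 to Pecam1, 0.14 to Cdh5, 0.21 to Ptprb and −0.11 to Emcn, against 0.51, 0.67, 0.75 and 0.32 with them. Between 21.5 and 84.6 CPM of Adgre1 the median r with Ddx3y counts was 0.44. Whether the sets differ in these r was not tested.

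Vegfa had its highest r, among the endothelial genes, with its receptors. Its r with Flt1 was 0.61 in both sets, and with Kdr 0.43 without and 0.63 with Ddx3y counts. With Pecam1 it was −0.33 without and 0.26 with Ddx3y counts, and with Ptprb −0.21 and 0.54, each past the threshold in its set. Angpt2 ran against Vegfa without Ddx3y counts (r = −0.55, rho −0.55) and did not pass with them (r = −0.12, adjusted p = 0.064, permutation test over 90 pairs and sets). Angpt1 and Angpt2 were weakly opposed in both sets (r = −0.26 and −0.15). These r are between genes of the same library and share its scaling.

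**Figure D4:**
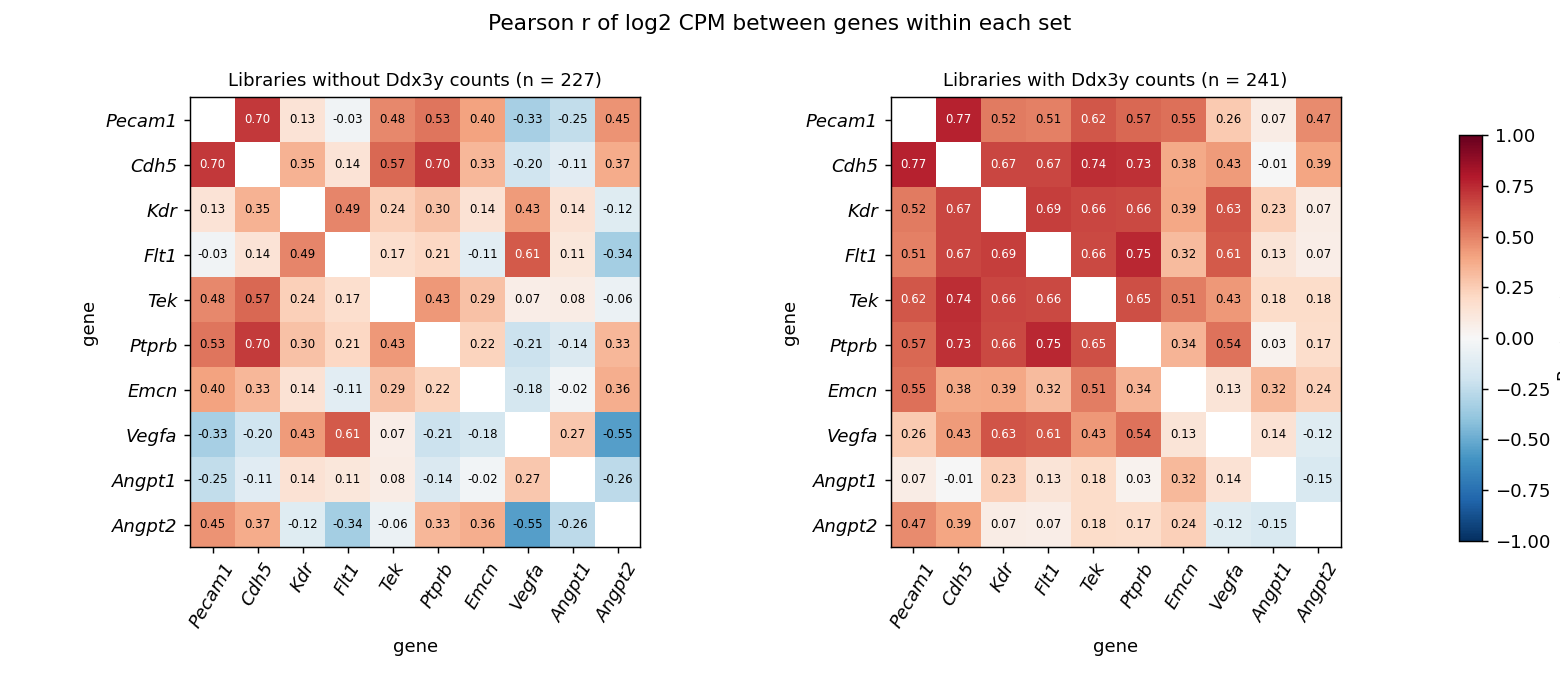
Pearson's r of log2 CPM between each pair of the 10 genes, from −1 (blue) to 1 (red), with libraries without Ddx3y counts on the left and with them on the right. The block of 7 endothelial genes is red throughout on the right (median r 0.65) and paler on the left (0.30), where Flt1 and Vegfa are joined by r = 0.61.

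Scores of other gene lists, each the mean z-score of its genes, set the 10 genes further apart. The adipocyte score went with Flt1 (r = 0.50 without and 0.75 with Ddx3y counts), Vegfa (0.51 and 0.70) and Kdr (0.39 and 0.70) in both sets. It went with Ptprb and Cdh5 in libraries with Ddx3y counts (0.68 and 0.58), and in the others these did not pass (0.13 and 0.11). The thermogenic score, from genes such as Ucp1 and Cidea, had r = 0.70 with Vegfa, 0.63 with Flt1 and −0.59 with Angpt2 in libraries without Ddx3y counts, and −0.15, 0.056 and −0.18 in libraries with them. The summed thermogenic genes reached 10013 CPM in the former and 1607 CPM in the latter. The hypoxia score had r = 0.57 with Vegfa and 0.60 with Flt1 without Ddx3y counts and 0.17 and 0.28 with them. The mural score, of pericytes and smooth muscle, had r of 0.48 with Pecam1, 0.46 with Angpt2 and 0.44 with Emcn in libraries without Ddx3y counts, and of 0.33, 0.22 and 0.59 in libraries with them. The mitosis score went with Angpt2 (0.48 and 0.34) and against Vegfa (−0.58 and −0.59). The progenitor score went with Angpt2 (0.38 and 0.29) and against Vegfa (−0.53 and −0.49), and the macrophage score, which does not hold Adgre1, did so as well (0.50 and 0.29; −0.67 and −0.66). Of 70 relations in each set 58 passed without and 51 with Ddx3y counts, after Benjamini-Hochberg adjustment over all 140 (permutation tests).

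**Figure D5:**
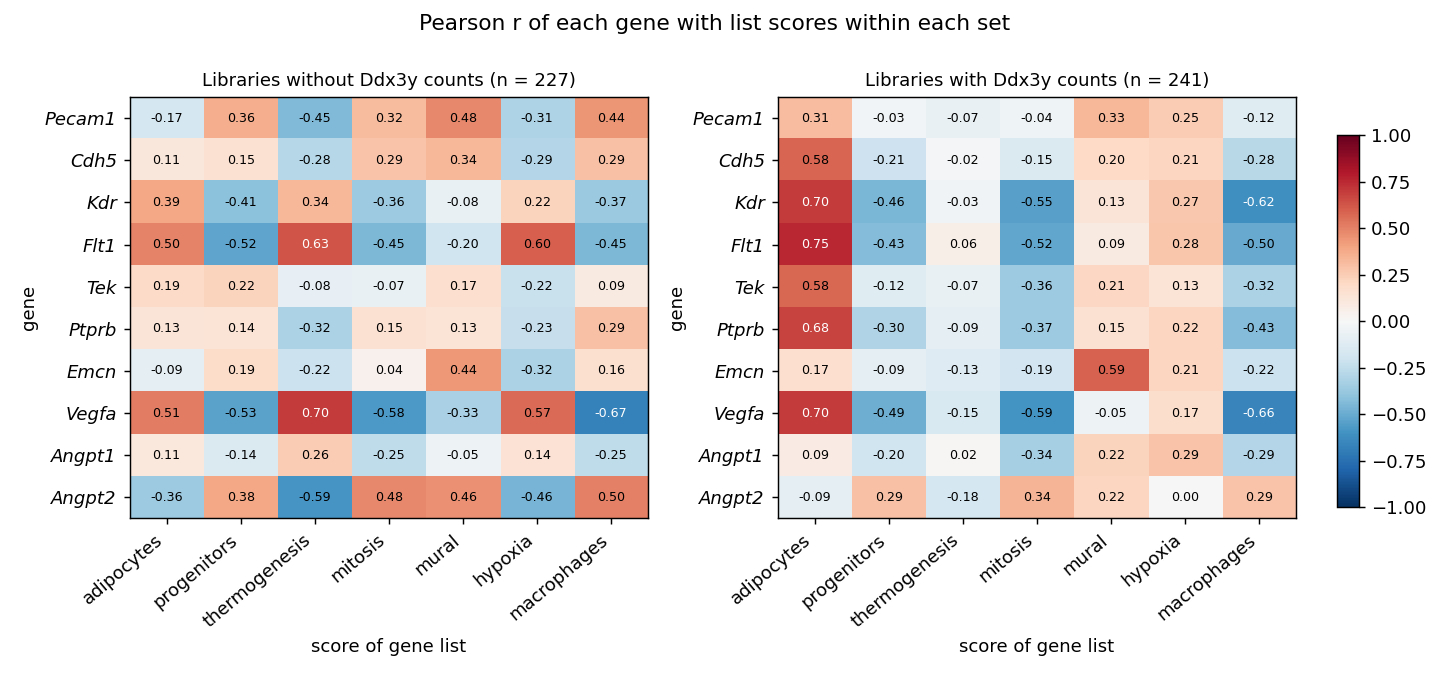
Pearson's r of each of the 10 genes with the score of 7 gene lists within each set, from −1 (blue) to 1 (red). Vegfa and Flt1 are red in the adipocyte column in both panels (0.51 and 0.50, then 0.70 and 0.75) and in the thermogenesis column of the libraries without Ddx3y counts (0.70 and 0.63).

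The genes most like the 10, by the smaller of the r in either set, were sought among 9508 genes. The mean of the 7 endothelial genes was followed most closely by Erg (smaller r 0.75), an ETS factor of endothelial cells, Robo4 (0.74), a guidance receptor of endothelium, Arap3 (0.74), Ushbp1 (0.74) and Adgrf5 (0.74). Vegfa was followed by Pnpla2 (0.74), the lipase that begins the breakdown of stored fat, Sik2 (0.72), a kinase abundant in adipocytes, and Aldh6a1 (0.71), an enzyme of valine catabolism. Angpt2 was followed by Fscn1 (0.62), an actin-bundling protein, Adamts5 (0.55), a protease of the matrix, and Gnb4 (0.55). For Angpt1 the nearest genes were only loosely tied: Tst (0.39), Srsf11 (0.37) and Fmo1 (0.36). These r are descriptions within each set of libraries.

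The rest of the VEGF family did not move as 1. Of its 7 other members 3 rose and 2 fell with Adgre1 without Ddx3y counts, and 3 rose and 3 fell with them (median slopes 0.061 and −0.011). Beside this and the lists below, 31.5% of all genes tested rose and 31.6% fell without Ddx3y counts. With them 29.3% rose and 43.2% fell. Vegfb, a ligand of Flt1, fell as Vegfa did (median 64 CPM, slopes −0.31 and −0.30, SE 0.028 and 0.020). Vegfc, a ligand of the lymphatic receptor Flt4, rose (6.45 CPM, 0.41 and 0.19). The coreceptor Nrp2 rose with Ddx3y counts (0.30) and fell without (−0.073). Pgf, which binds Flt1 alone of the VEGF receptors, rose without Ddx3y counts (0.54) and fell with them (−0.14), at a median of only 2.74 CPM. Of 6 other genes of the Tie pathway 3 rose and 0 fell without Ddx3y counts and 3 rose and 2 fell with them. Foxo1, a transcription factor held in check by Tek signalling, fell with Ddx3y counts (−0.24, SE 0.021) and did not pass without (−0.060, adjusted p = 0.0711 in edgeR). Dok2, an adaptor of Tek that blood cells also express, rose in both (0.54 and 0.63), and Svep1 rose in both (0.22 and 0.20).

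A list of other genes shared by all endothelial cells was counted beside the 7. Of 22, 8 rose and 2 fell without Ddx3y counts, and 1 rose and 17 fell with them (median slopes 0.047 and −0.11). Fli1, an ETS factor that blood cells share, was the 1 that rose with Ddx3y counts (0.10, SE 0.016), and Sox7 fell there most (−0.35, SE 0.030). Between 21.5 and 84.6 CPM of Adgre1, 2 of the 22 rose and 3 fell with Ddx3y counts, against 4113 and 4881 of all 18379 genes. Of 9 genes of lipid-handling capillaries 2 rose and 4 fell without and 1 rose and 7 fell with Ddx3y counts. In that range of Adgre1, 2 of the 9 rose and 2 fell with Ddx3y counts. Over all libraries with Ddx3y counts the fatty acid binding protein Fabp5 rose (0.26, SE 0.037) and Timp4 fell (−0.44, SE 0.046).

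Most genes of sprouting endothelium rose. Of 10, 8 rose and 0 fell without Ddx3y counts and 6 rose and 2 fell with them (median slopes 0.29 and 0.081). Cxcr4, a chemokine receptor of tip cells and of leukocytes, rose in both (0.55 and 0.56, SE 0.045 and 0.028), and Apln, a peptide of tip cells, rose in both (0.49 and 0.14, SE 0.076 and 0.056). Esm1, at a median of 2.05 CPM, rose without Ddx3y counts (0.43, SE 0.10) and did not pass with them (−0.068, adjusted p = 0.386 in edgeR). Dll4, the Notch ligand of tip cells, did not pass without (0.063, adjusted p = 0.173 in edgeR) and fell with Ddx3y counts (−0.10, SE 0.030). Of 10 Notch and arterial genes 5 rose and 0 fell without and 1 rose and 7 fell with Ddx3y counts. Of 8 venous genes 5 rose in each set and 0 and 3 fell. Lrg1 (0.84 and 0.56) and the adhesion receptor Selp (0.51 and 0.20) rose in both. Nr2f2 (−0.27, SE 0.031) and Ephb4 (−0.17, SE 0.017), of the same list, fell with Ddx3y counts and did not pass without (0.033 and −0.037).

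Of 6 lymphatic genes 2 rose and 0 fell without Ddx3y counts and 1 rose and 4 fell with them. Of 12 mural genes 4 rose and 1 fell without and 2 rose and 7 fell with Ddx3y counts. Over all libraries Pdgfrb, the receptor by which pericytes are recruited, rose in both (0.33 and 0.32, SE 0.028 and 0.019). It was the only mural gene to do so. Rgs5 passed in neither set (0.019 and −0.018), and Cspg4 fell without and rose with Ddx3y counts (−0.18 and 0.27). Myh11 of smooth muscle fell with Ddx3y counts (−0.64, SE 0.11). The 3 epididymis genes tested fell there too, and their sum reached 18319 CPM, against 25.2 CPM without Ddx3y counts. Whether tissue beside the fat bears on the slope of Myh11 was not tested. Of 8 inhibitors of angiogenesis 6 rose and 0 fell without and 4 rose and 3 fell with Ddx3y counts. Sparc (0.48 and 0.33), Serpinf1 (0.61 and 0.47) and Col18a1, the source of endostatin (0.53 and 0.14), rose in both, while Timp3 fell with Ddx3y counts (−0.29, SE 0.023). Of 12 genes of HIF and its targets 5 rose and 7 fell without and 3 rose and 6 fell with Ddx3y counts. Hif1a rose in both (0.15 and 0.27), and Pdk1 (−0.67 and −0.26) and Bnip3 (−0.078 and −0.30) fell in both. All 12 mitosis genes rose in both sets, and 10 and 9 of 12 progenitor genes rose. All 10 thermogenic genes fell without Ddx3y counts, and 3 rose and 4 fell with them. Other lists also moved: 8 and 5 of 8 T cell genes and 7 and 1 of 7 B cell genes rose, and 6 of 8 mesothelium genes rose without and 7 fell with Ddx3y counts. These lists are read only as counts beside the 10 genes, over all libraries except where a range of Adgre1 is named.

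The order of the mice and of the libraries touched the 10 genes little. Per 100 mouse numbers, Ptprb fell by 0.043 on the log2 scale (SE 0.0091, adjusted p = 0.000173 in edgeR) and the other 9 did not pass, where 13.7% of all genes did. Per 100 library numbers 0 of the 10 genes passed, with 0 at an unadjusted p under 0.05, and 0.294% of all genes passed; limma and DESeq2 also called 0 of the 10. Without the Ddx3y term 4 of the 10 passed on mouse number.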

How the data were processed

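RNA from adipose tissue of 468 Diversity Outbred mice was sequenced, 1 library per mouse. Ddx3y counts were absent in 227 libraries and present in 241; the range of 21.5 to 84.6 CPM of Adgre1 held 203 and 153 of them, and 12 and 84 lay above it. According to the study's methods, the authors aligned both ends as single reads to a transcriptome joining the founder strains and deposited expected counts per gene from expectation maximization (EMASE, run by GBRS), after removing transcripts with few reads. They also deposited log2-like values after variance stabilization (VST, by DESeq2), for which the methods describe removal of batch; both were made on GRCm38, with versions and use of strand not given in the sources used here. Gene positions were deposited in megabases as other annotation and equalled those of GENCODE M21 for the genes named.

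Genes with at least 10 counts in at least 50% of libraries were kept (18380 of 23180). Log2 CPM (counts scaled to library size) used TMM factors of 0.578 to 1.36, with 2 added as prior count. For the tests, expected counts were first rounded and passed to edgeR 4.0.16, whose quasi-likelihood model held Ddx3y presence and a slope on Adgre1 log2 CPM in each set, and was tested on simulated data; a second model held mouse and library number. The threshold was an adjusted p of 0.05. Permutation tests were two-sided with 100000 resamples, and the smallest p they can give is 1e-05. Alternatives used DESeq2 1.42.0, limma 3.58.1, other scalings, no filter, and fewer libraries. Since each mouse gave 1 library, p-values cover the spread between mice and the assay together. The sources used here name no molecular identifiers, so PCR copies may add error beyond that of counting.

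The genes and lists were chosen by name with earlier results of these data known. Genes named from a list of vessel genes are among those with the 2 highest or 2 lowest slopes on Adgre1 in either set. Likeness was the smaller within-set Pearson r among genes of at least 10 CPM, with 5 genes named for the endothelial mean and 3 for each secreted gene.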

Additional observations from a re-analysis of the deposited data

Results flagged for a closer look

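The slopes on Adgre1 of 7 genes differed between libraries with and without Ddx3y counts by a test of the difference itself, an interaction in the edgeR model adjusted over 18379 genes. With minus without, the differences on the log2 scale per doubling of Adgre1 were −0.26 for Ptprb, −0.23 for Angpt2, −0.18 for Pecam1, −0.17 for Cdh5, −0.13 for Kdr, −0.12 for Emcn and −0.10 for Tek. Ptprb, Pecam1 and Cdh5 had positive slopes without and negative slopes with Ddx3y counts over all libraries, of which that of Pecam1 with Ddx3y counts did not pass the test. Between 21.5 and 84.6 CPM of Adgre1, where both sets hold most of their libraries (89.4% and 63.5%), the difference of Ptprb (−0.19, adjusted p = 0.0146) passed and those of Angpt2 (−0.11), Pecam1 (−0.096), Cdh5 (−0.063), Kdr (−0.097), Emcn (−0.097) and Tek (−0.070) did not. With the adipocyte score as a covariate, those of Ptprb (−0.13), Pecam1 (−0.10) and Emcn (−0.11) passed, those of Cdh5 (−0.051), Kdr (−0.044), Tek (−0.0059) and Angpt2 (−0.11) did not, and those of Flt1 (0.11) and Angpt1 (−0.28) did. With library totals alone all 10 passed as lower, as did 10255 of all 18379 genes (median difference −0.12).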

How the results depend on the processing

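Slopes of Vegfa, Angpt1 and Angpt2 on Adgre1 kept their sign in both sets under every alternative run. No paired analysis was possible because there was 1 group. With library totals alone, the slope of Kdr without Ddx3y counts was 0.025 (r = 0.0763) and the difference for Flt1 −0.10; the median r of endothelial pairs without Ddx3y counts was 0.459 (0.297 with TMM), and 2 genes passed on mouse number. With the adipocyte score as a covariate, slopes with Ddx3y counts were 0.089 for Cdh5, 0.014 for Flt1, 0.040 for Tek and 0.030 for Ptprb. With it regressed out, r was 0.261, 0.0601, 0.132 and 0.0884, r against the other 6 was 0.0491 for Flt1, 0.10 for Ptprb and −0.247 for Emcn, and the median pair r was 0.447. In the range of 21.5 to 84.6 CPM of Adgre1, chosen after seeing the data, slopes with Ddx3y counts were 0.099 for Pecam1, 0.11 for Cdh5, 0.014 for Tek, 0.023 for Ptprb and 0.066 for Emcn. Their r was 0.201, 0.205, 0.0231, 0.0176 and 0.122, r of Tek against the other 6 was −0.0092, the median pair r was 0.437, and 2 of the 10 genes and 30.4% of all genes (50.8% over all libraries) differed between sets. Above that range r was −0.205 for Angpt2 and 0.0908 for the angiopoietin ratio. Without the Ddx3y term 4 of the 10 and 23.7% of all genes passed on mouse number (1 and 13.7% with it). On library number 0.294% of genes passed, against 0 by limma on log2 CPM (1557 at an unadjusted p under 0.05), 0 by limma on VST values (1481), 0.613% with no filter and 0.158% when the tenth of libraries of lowest depth was left out. The cause of these changes was not tested. Results for single genes were counted once per alternative, and a change of sign counted only where at least 1 of the values compared passed. By that count 1312 stayed on the same side of the threshold, 44 lost it, 37 gained it and 27 changed sign.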
